A study of Arabidopsis thaliana with 6 samples.

Results

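The hda19 mutant was compared with wild-type Arabidopsis thaliana for 19907 genes, namely those whose adjusted read count averaged 10 or more in either genotype, out of 32548 gene identifiers in the deposited table. The hda19 plants (genotype label hda19-/-) carry the T-DNA insertion SALK_139445 in HDA19 and are in the Col-0 background, and the wild type is Col-0 itself. Whole seedlings of both genotypes were grown on MS medium plates and soil for 20 days at 22 °C with 16 h of light and 8 h of dark, and RNA-seq was performed on total RNA with 2 libraries per genotype, which the study's methods describe as independent biological replicates. Another genotype, the CRISPR-Cas9 triple mutant hdip1/2/3, was sequenced in the same way. It entered the fit to estimate the spread between libraries, counted towards the filter for genes tested, and was also compared directly with hda19. The mutant is represented by a single insertion line, and RNA from all organs was mixed, so a gene that is expressed in fewer cells and a gene with less RNA per cell cannot be told apart.

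HDA19 is a histone deacetylase of the RPD3 class. Such enzymes remove acetyl groups from histone tails, a reaction generally associated with compact chromatin and gene repression, and they act in complexes with SIN3-type scaffold proteins that are brought to genes by DNA-binding proteins and corepressors. HDA19 is known in Arabidopsis for roles in embryo and seedling development, in flowering, in defence and in the response to abscisic acid (ABA). The functions described here follow these topics, from salicylic acid (SA) and immunity through ethylene, senescence, pigments, ABA and flowering to growth and photosynthesis.

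Between 43906641 and 48407739 reads were assigned to genes in each of the 6 libraries, and the 10 genes with the most reads took 7.05% to 9.80% of them. The leaf markers RBCS1A, LHCB1.1, LHCB2.1 and CAB1 were present, with summed adjusted counts of 1900943 and 1408677 in hda19 and of 1397675 and 1882545 in the wild type. None of the 5 seed markers reached a mean of 10, and their sums stayed between 0.0 and 6.1 in the 4 libraries. Of 6 root markers, SCR and SHR were measured above the limit, with sums of 2209 and 2171 over the listed root genes in hda19, against 3301 and 2939 in the wild type, and both had a negative log2FC with an unadjusted P value under 0.05 (-0.53 ± 0.14 and -0.42 ± 0.16) but did not pass the fold limit. The 5 flower markers summed to 263 and 125 in hda19 and to 134 and 150 in the wild type, so the genotypes overlapped. The part of these tissue differences in the gene groups below was not tested.

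The transcript of the mutated gene was examined in every library. HDA19 (AT4G38130, chromosome 4, positions 17896278 to 17899509 of TAIR10.1, minus strand) had adjusted read counts of 2832 and 4561 in hda19 and of 4298 and 4416 in the wild type. One hda19 library was thus below and the other above both wild-type libraries, and the log2 fold change (log2FC) was -0.28 ± 0.21 (standard error, as for all log2FC values given with ±). A count over the whole gene does not show where a transcript begins or ends, so it is no check of an insertion mutant's label. HDA6, the closest relative of HDA19, had 881 and 880 in hda19 and 1025 and 882 in the wild type, a log2FC of -0.11 ± 0.14. None of the 13 listed subunits of the complexes passed the limits by limma-trend or by limma-voom on recovered reads, although 3 had an unadjusted P value under 0.05 with a positive log2FC. These 3 were the plant-specific subunits HDIP1, HDIP2 and HDIP3. HDIP2 had 610 and 561 in hda19, against 378 and 239 in the wild type, and HDIP1 had 714 and 813 in hda19, against 522 and 379 in the wild type. Their log2FC values were 0.96 ± 0.23 for HDIP2, 0.77 ± 0.20 for HDIP1 and 0.64 ± 0.20 for HDIP3, and without wild-type library 1 the number of subunits past the limits was 2.

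More genes were higher than lower in hda19. With limits of a log2FC beyond 1 and an unadjusted P value under 0.05 by limma-trend, 943 genes were upregulated in hda19 (4.74% of the 19907) and 361 were downregulated (1.81%). Over all 23685 genes tested, which include those of lower level, the shares were 4.65% and 2.09%. By a Benjamini-Hochberg adjusted P value under 0.05, without a fold limit, 508 genes were higher (2.55%) and 163 were lower (0.819%, against 2.15% and 0.688% of all genes tested), and 393 and 92 of these also passed the fold limit. The median log2FC was 1.52 among upregulated and -1.50 among downregulated genes, and a log2FC beyond 2 was reached by 254 upregulated and 110 downregulated genes. Over all 19907 genes, 5% lay below -0.69 and 5% above 1.09, with a median of 0. Both hda19 libraries lay above both wild-type libraries in 4918 genes (24.7%, against 23.7% of all genes tested) and below them in 4750 genes (23.9%, against 24.1%). When 1 library of hda19 or the wild type was left out, the genes called by fold and P value were only partly the same. Other genes took the place of some that were lost. In contrast, the counts by adjusted P value were 0 in both directions after each of these omissions and also when hda19 and the wild type were fitted alone, when 3556 genes still had an unadjusted P value under 0.05.

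**Figure D1:**
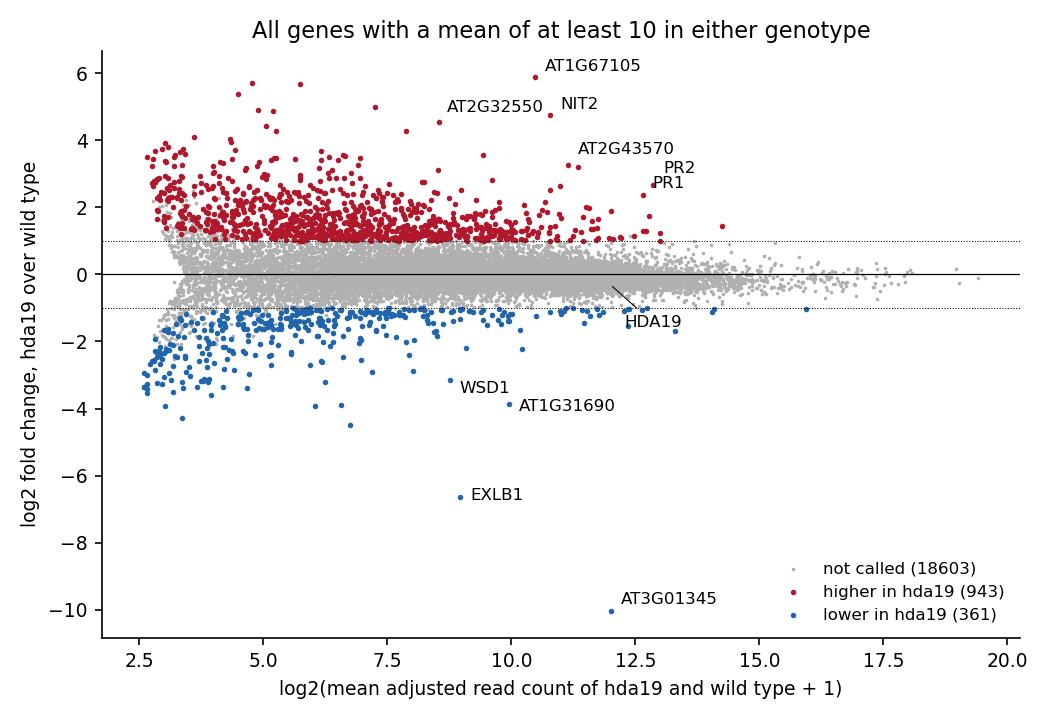
Log2 fold change of hda19 over wild type (vertical axis) against the log2 of the mean adjusted read count of both genotypes plus 1 (horizontal axis), 1 point per gene for 19907 genes, with dotted lines at log2FC values of 1 and -1. The 943 upregulated genes (red) outnumber the 361 downregulated genes (blue), and AT3G01345 lies lowest at -10.04.

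The level of a gene bore on these counts, and the lower limit of 10 applied to either genotype. Among the 19115 genes that averaged 10 or more in both genotypes, 744 were upregulated (3.89%) and 240 were downregulated (1.26%). A further 453 genes reached this mean in hda19 only and 339 in the wild type only, and these groups had to differ in the direction that let them pass. By the mean of both genotypes, 12.8% of the 3831 genes under 100 were upregulated and 6.11% were downregulated. The shares were 4.39% and 1.16% of 8513 genes at 100 to 1000. At 1000 or more, 78 of 7563 genes were upregulated (1.03%) and 28 were downregulated (0.37%). The gene of lowest level inside the limit had a mean of 10 in its higher genotype, and the gene just outside had 9.98.

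Genes of SA-dependent immunity were higher in hda19. SA accumulates in leaves under attack by biotrophic pathogens, and PR1, PR2 (a glucanase) and PR5 (a thaumatin-like protein) are its usual marker genes. PR1 had adjusted read counts of 9930 and 11541 in hda19 and of 1979 and 2176 in the wild type. PR2 had 14450 and 11250 in hda19 and 2132 and 1893 in the wild type. The libraries of the 2 genotypes lay far apart for both genes, with a log2FC of 2.37 ± 0.16 for PR1 (limma-trend, Benjamini-Hochberg adjusted P = 0.00212) and of 2.67 ± 0.24 for PR2 (limma-trend, adjusted P = 0.00413). PR5 had 5111 and 6261 in hda19, against 2968 and 2501 in the wild type, a log2FC of 1.05 ± 0.28 that no longer passed the limits without any 1 of the 4 libraries (0.91 to 1.2).

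Of 19 genes of SA synthesis and signalling, 7 were upregulated (36.8%, against 4.74% of all genes) and none was downregulated, and the median log2FC of the list was 0.68. The upregulated genes acted on both sides of SA accumulation. CBP60G and SARD1, a pair of transcription factors that activate SA synthesis, had log2FC values of 1.27 ± 0.20 and 1.07 ± 0.21. CBP60G had 1594 and 1465 in hda19 and 660 and 609 in the wild type, and SARD1 had 1326 and 1367 in hda19 and 742 and 550 in the wild type. PBS3, which conjugates isochorismate on the way to SA, had 1259 and 1215 in hda19 and 568 and 530 in the wild type (1.17 ± 0.31). In the opposite role, S3H and S5H hydroxylate SA and so remove it. S3H had 1314 and 1138 in hda19 and 428 and 263 in the wild type (1.86 ± 0.37), and S5H had 6069 and 6592 in hda19 and 3265 and 2642 in the wild type (1.11 ± 0.15). NIMIN1 and NIMIN2, which bind the SA receptor NPR1 and restrain it, had log2FC values of 1.49 ± 0.28 and 1.40 ± 0.22. The central enzyme and receptor of the pathway stayed below the fold limit. ICS1, the main isochorismate synthase of SA production, had 1629 and 1784 in hda19 and 1089 and 1001 in the wild type, a log2FC of 0.71 ± 0.19. NPR1 had 1695 and 1859 in hda19 and 1512 and 1706 in the wild type, and its libraries overlapped. PAD4, a lipase-like immune regulator, was higher by the adjusted P value alone, with 1381 and 1326 in hda19 and 860 and 848 in the wild type (log2FC 0.66 ± 0.12, limma-trend adjusted P = 0.035). Without wild-type library 2, only 3 of the 19 genes passed the limits, as S3H (1.51), S5H (0.95), SARD1 (0.86) and PBS3 (1.12) were lost. S3H was also lost without hda19 library 1 (1.76), and PBS3 without any 1 of the 4 libraries (up to 1.22).

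N-hydroxypipecolic acid is the mobile signal of systemic acquired resistance, and 2 of its 4 listed genes were upregulated (50%, against 4.74% of all genes). FMO1, the enzyme that makes it, had 189 and 184 in hda19 and 29.2 and 40.4 in the wild type (2.41 ± 0.44), and UGT76B1, which attaches glucose to it, had 247 and 359 in hda19 and 60.4 and 49.6 in the wild type (2.42 ± 0.30). Both calls remained without any 1 library. ALD1, which starts the pathway from lysine, had 135 and 115 in hda19 and 89.5 and 63.7 in the wild type, a log2FC of 0.72 ± 0.29 that did not pass.

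**Figure D2:**
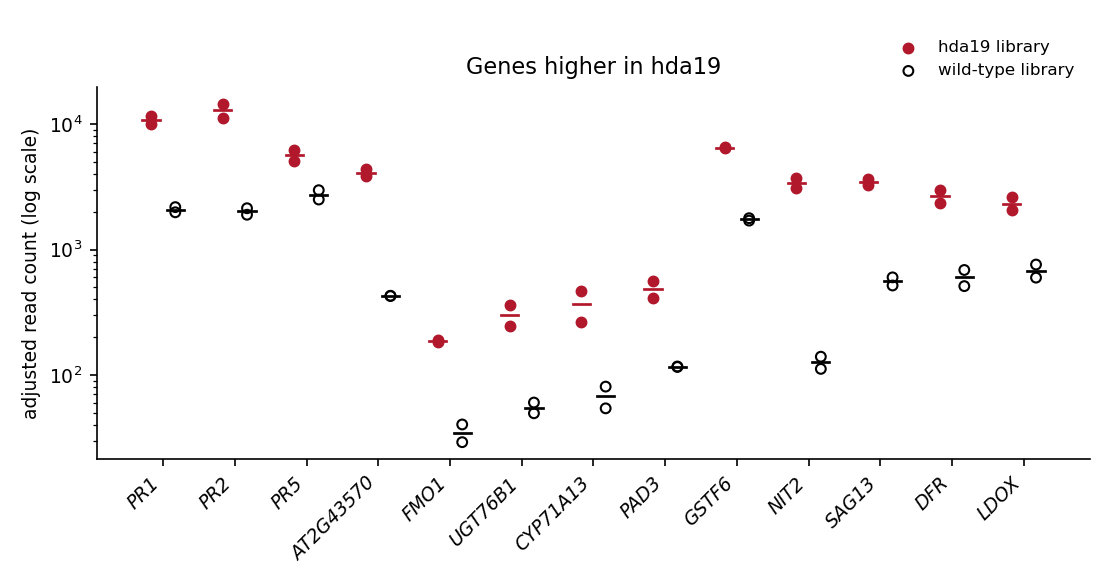
Adjusted read counts (log axis) of 13 upregulated genes in each library, with hda19 as filled points on the left and the wild type as open points on the right of each pair, and lines at the means of 2 libraries. No wild-type point reaches an hda19 point of the same gene, and NIT2 shows the widest gap.

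Few immune receptors passed the fold limit. Pattern receptors at the cell surface recognise microbial molecules, and 2 of 14 were upregulated (14.3%, against 4.74% of all genes). Of the 14, 9 had an unadjusted P value under 0.05 with a positive log2FC, and 12 lay above the wild type in both libraries (24.7% of all genes). RLP23, the receptor of NLP peptides, had 2770 and 2338 in hda19 and 1120 and 814 in the wild type (1.41 ± 0.24). EFR, the receptor of bacterial elongation factor Tu, had 387 and 485 in hda19 and 180 and 249 in the wild type (1.03 ± 0.22), and it was lost without wild-type library 1 (0.80) or hda19 library 2 (0.87). FLS2, the flagellin receptor, had 926 and 1148 in hda19 and 628 and 535 in the wild type and was higher by adjusted P value only (0.83 ± 0.16, limma-trend adjusted P = 0.0422). Among 134 intracellular NLR and TIR genes, 9 were upregulated (6.72%, near the 4.74% of all genes) and 1 was downregulated, with a median log2FC of 0.09, and the numbers upregulated were 5, 5, 5 and 2 when wild-type library 1, wild-type library 2, hda19 library 1 and hda19 library 2 were left out. AT1G58400, of the coiled-coil class, had 80.3 and 128 in hda19 and 24.1 and 25.3 in the wild type (2.00 ± 0.37). Of 36 cysteine-rich receptor-like kinases 33 had a positive log2FC and 22 lay above the wild type in both libraries (24.7% of all genes). In this family 4 were upregulated (11.1%, against 4.74% of all genes), with CRK7 as an example (509 and 530 in hda19, 272 and 106 in the wild type, 1.61 ± 0.51). CRK7 was lost without wild-type library 2 (0.93) or hda19 library 1 (1.63) or 2 (1.58), and the number of calls in the family was 0 without wild-type library 2 or hda19 library 2 and 1 without hda19 library 1.

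WRKY factors, plant transcription factors named after a motif in their DNA-binding domain, bind the W-box and act in many immune responses. Of 54 measured members 15 were upregulated (27.8%, against 4.74% of all genes) and none was downregulated (1.81% of all genes), and the family median was 0.70. WRKY25 had 916 and 920 in hda19 and 303 and 276 in the wild type (1.66 ± 0.18), and WRKY60 had 840 and 839 in hda19 and 317 and 201 in the wild type (1.73 ± 0.26). WRKY38, a repressor of basal defence, had 219 and 273 in hda19 and 67.4 and 31.4 in the wild type (2.38 ± 0.41). The largest increase was that of WRKY61, with 34.0 and 54.5 in hda19 and 6.04 and 6.07 in the wild type (2.64 ± 0.48). WRKY75 had 73.0 and 60.3 in hda19 and 8.06 and 17.2 in the wild type (2.39 ± 0.61), and it was lost without wild-type library 1 (1.89) or hda19 library 1 (2.26) or 2 (2.53). WRKY33 and WRKY70, often used as markers of defence, did not pass, with log2FC values of 0.78 ± 0.22 and 0.44 ± 0.30. The number of upregulated members was 8 without hda19 library 2 and between 11 and 16 without each of the other libraries, and 7 of the 15 passed in all of these fits.

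The core of the W-box was searched in the 300 bases before the annotated start of each protein-coding gene, on both strands, because WRKY genes and SA markers were higher together. TTGAC occurred in 577 of 911 windows of upregulated genes (63.3%), in 172 of 348 windows of downregulated genes (49.4%) and in 9766 of 19493 windows of all genes (50.1%). At least 3 sites stood in 11.1%, 4.02% and 4.98% of these windows. TGACG, the core of the as-1 element, which shares its letters with TTGAC wherever TTGACG is written, stood in 26.9% of upregulated, 23.9% of downregulated and 22% of all windows. Site II (TGGGCC), common before genes for protein synthesis, stood in 8.01%, 6.61% and 17.6% of windows, and the G-box (CACGTG) in 7.57%, 8.05% and 8%. Other motifs searched also had unequal shares, so the W-box was not alone in this. The heat shock element (GAANNTTC) stood in 15.7%, 8.91% and 11.3% of windows. The CRT core (CCGAC) stood in 12.4%, 19.8% and 14.9%, and the telo box (AAACCCTA) in 2.2%, 4.6% and 4.25%. For the ABRE (ACGTGTC) the shares were 3.84%, 5.46% and 4.55%, for the evening element (AAAATATCT) 3.51%, 4.02% and 2.9%, and for the GCC box (GCCGCC) 2.31%, 0.575% and 2.35%. The GC content of the windows was 30.2%, 30.9% and 31.5%. A match shows only that these letters stand in the window. Of upregulated genes, 12 of 15 WRKY genes, 9 of 9 NLR and TIR genes and 3 of 4 camalexin genes had TTGAC. So did 5 of 5 tau glutathione transferases, 6 of 8 flavonoid and anthocyanin genes and 5 of 7 senescence genes, so the site was not particular to immune lists. It stood before 3 of 7 genes of SA synthesis and signalling, 2 of 4 ethylene genes and 0 of 3 genes of the ethylene-jasmonate branch. No site was found before FMO1, UGT76B1, PAD3, CBP60G and NIT2. The following stretches show the site nearest to the start of 6 upregulated genes in TAIR10.1 (RefSeq sequence, written 5′ to 3′ along the gene's own strand), with TTGAC in capitals. They come from chr2:6242631-6242655 (PR1), chr3:21190218-21190242 (PR2), chr2:13101459-13101483 (CYP71A12), chr2:13112102-13112126 (CYP71A13) and chr1:662565-662589 (GSTF6) on the minus strand, and from chr5:25908191-25908215 (WRKY51) on the plus strand.
PR1: aaggacaagaTTGACaaaaaaatag
PR2: tcacgctagcTTGACgtacgattaa
CYP71A12: ttcatgcaagTTGACaaaaacgatg
CYP71A13: tcctgcactaTTGACagaaaacgat
GSTF6: cggtcagagtTTGACtagtagatga
WRKY51: ctgaaattgcTTGACataagtagta
The site lies 99 bases before the start of PR1 and of GSTF6, 260 before PR2, 97 before CYP71A12, 123 before CYP71A13 and 41 before WRKY51. In PR2 the site runs on into TGACG.

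The later steps of camalexin synthesis were upregulated, and the steps before them were not. Camalexin is the main phytoalexin of Arabidopsis, an indole compound made from tryptophan through indole-3-acetaldoxime. CYP71A13 and CYP71A12, neighbouring genes that dehydrate the aldoxime, had log2FC values of 2.39 ± 0.35 and 2.3 ± 0.35. CYP71A13 had 264 and 467 in hda19, against 54.3 and 80.9 in the wild type, and CYP71A12 had 208 and 358 in hda19, against 59.3 and 50.6 in the wild type. The sequences of these copies are nearly alike, and because only uniquely mapped reads were counted, the division of reads between them is uncertain. GSTF6, the glutathione transferase of the next step, had 6415 and 6551 in hda19 and 1776 and 1699 in the wild type (1.90 ± 0.15). PAD3, which closes the ring at the end of the pathway, had 412 and 558 in hda19 and 117 and 116 in the wild type (2.03 ± 0.22). All 4 calls of the 7 listed genes (57.1%, against 4.74% of all genes) remained without any 1 library. The aldoxime-forming enzymes CYP79B2 (1282 and 1377 in hda19, 1560 and 1112 in the wild type) and CYP79B3 (log2FC 0.14 ± 0.12), which also feed indole glucosinolates, overlapped or nearly touched between genotypes.

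Glucosinolates are the sulfur-containing defence compounds of the cabbage family. Among 19 genes of the aliphatic branch 1 was upregulated (5.26%, near the 4.74% of all genes) and 2 were downregulated (10.5%, against 1.81%). CYP79F2, which converts long-chain methionine derivatives, had 1095 and 1224 in hda19 and 486 and 446 in the wild type (1.31 ± 0.14). MAM3, which elongates the methionine chain, had 609 and 476 in hda19 and 1277 and 1548 in the wild type (-1.38 ± 0.18). MYB29, a regulator of the branch, had 1062 and 1132 in hda19 and 2403 and 2410 in the wild type (-1.13 ± 0.11), whereas its relative MYB28 had a log2FC of 0.15 ± 0.13. Of 10 genes of the indole branch 1 was upregulated (10%, against 4.74% of all genes). It was CYP81F2, whose product modifies the indole ring for antifungal defence (196 and 299 in hda19, 72.4 and 93.0 in the wild type, 1.55 ± 0.31). All of these calls remained when any 1 library was omitted.

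Chitinases, which cleave fungal cell walls, were examined after their values had been seen. Of 16 members 6 were upregulated (37.5%, against 4.74% of all genes) and 1, AT2G43590, was downregulated (6.25%, against 1.81%). The family as a whole did not rise, with a median log2FC of -0.09. Its values were positive in 7 members and negative in 9, with a lowest log2FC of -1.68. In both hda19 libraries 7 members lay above and 6 below the wild type. AT2G43570 had 4363 and 3817 in hda19, against 426 and 428 in the wild type, and its log2FC of 3.25 ± 0.29 was the largest of the family (limma-trend adjusted P = 0.00413). AT1G02360 had 161 and 286 in hda19 and 39.3 and 73.8 in the wild type (1.97 ± 0.38).

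Genes of ethylene synthesis were upregulated in hda19, and no signalling gene of the list passed the limits. ACC synthases set the rate at which this hormone is made. Of 16 listed genes 4 were upregulated (25%, against 4.74% of all genes) and none was downregulated. The median was 0.38, and 9 had an unadjusted P value under 0.05 with a positive log2FC. Among the 4 were 3 ACC synthases. ACS2 had 58.7 and 73.1 in hda19 and 2.02 and 11.1 in the wild type (3.46 ± 0.67), ACS8 had 112 and 73.5 in hda19 and 20.1 and 15.2 in the wild type (2.31 ± 0.35), and ACS7 had 38.0 and 34.6 in hda19 and at most 4.02 in the wild type. ACS7 (4.05 ± 0.85) was lost without hda19 library 1 (3.99). The receptor ETR2 (0.70 ± 0.21) and the transcription factor EIN3 (0.42 ± 0.13) lay above the wild type in both hda19 libraries without passing the fold limit. The receptor ETR1 (-0.02 ± 0.12) and the signal transducer EIN2 (0.15 ± 0.14) overlapped between genotypes.

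Targets of the ethylene-jasmonate branch moved in both directions. PR4, a chitin-binding protein, had 4526 and 4428 in hda19 and 1528 and 1961 in the wild type (1.37 ± 0.15), and PR3, a basic chitinase, had 366 and 274 in hda19 and 102 and 137 in the wild type (1.42 ± 0.25). PDF1.3, a defensin, had 14.5 and 26.0 in hda19 and 136 and 111 in the wild type (-2.60 ± 0.54). Its near-identical copy PDF1.2 had 225 and 259 in hda19 and 210 and 105 in the wild type (0.70 ± 0.43), and reads shared by such copies were not counted. ERF1, the activator of this branch, was upregulated (2.48 ± 0.71) but lost without wild-type library 2 (1.49) or hda19 library 1 (2.03) or 2 (2.93). Of 16 jasmonate synthesis and marker genes 2 were upregulated (12.5%, against 4.74% of all genes). They were LOX1, a lipoxygenase (1985 and 2237 in hda19, 920 and 817 in the wild type, 1.28 ± 0.19), and AOC3, an allene oxide cyclase (1.48 ± 0.39). AOC3 was lost without wild-type library 1 (0.83) or hda19 library 1 (1.34) or 2 (1.62). The classical jasmonate genes LOX2 (-0.31 ± 0.13) and VSP2 (0.46 ± 0.25) did not pass. JAZ proteins repress jasmonate responses. Of 12 genes JAZ7 (1.45 ± 0.49) and JAZ1 (1.0 ± 0.26) were upregulated (16.7%, against 4.74% of all genes). JAZ4 (-1.64 ± 0.67) was downregulated (8.33%, against 1.81%), and none of these calls was made in all fits with 1 library left out. JAZ1 had 0.66 without wild-type library 1 and 0.82 without hda19 library 2. JAZ7 had 1.18 without wild-type library 1, 1.72 without wild-type library 2 and 0.92 without hda19 library 2, and JAZ4 was lost without each of the 4 libraries (-1.21 to -2.08).

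Senescence genes formed another upregulated group. Leaf senescence is the ordered dismantling of an ageing leaf. Of 16 listed markers and regulators 15 were measured. Among these 15, 7 were upregulated (46.7%, against 4.74% of all genes), with none downregulated and a median of 0.99. The senescence marker SAG12 is listed without reads in every library of both genotypes, so it could not be compared. SAG13, an early senescence marker, had 3668 and 3249 in hda19 and 600 and 517 in the wild type (2.63 ± 0.23, limma-trend adjusted P = 0.00403). SAG21, a protein of mitochondria related to LEA proteins, had 1559 and 1412 in hda19 and 436 and 641 in the wild type (1.49 ± 0.19). SAG29, a sugar transporter, had 594 and 534 in hda19 and 152 and 232 in the wild type (1.58 ± 0.27). SEN1, a gene also induced by darkness and sugar depletion, spread more widely, with 287 and 531 in hda19 and 65.4 and 125 in the wild type (2.1 ± 0.39). The NAC factors ANAC019 (164 and 182 in hda19, 26.1 and 19.2 in the wild type, 2.89 ± 0.51) and ANAC055 (64.8 and 70.3 in hda19, 18.1 and 5.08 in the wild type, 2.67 ± 0.56), which also answer jasmonate and ABA, were upregulated. The last of the 7, WRKY53 (1.18 ± 0.22), was lost without hda19 library 2 (0.99), and the others remained without any 1 library.

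Tau-class glutathione transferases detoxify reactive compounds. Of 21 members 5 were upregulated (23.8%, against 4.74% of all genes) and none was downregulated, with a median of 0.10. GSTU8 had 170 and 206 in hda19 and 41.3 and 57.6 in the wild type (1.92 ± 0.28), and GSTU4 had 171 and 167 in hda19 and 41.3 and 56.6 in the wild type (1.78 ± 0.28). The number was 3 without wild-type library 2 or hda19 library 2. Among superoxide dismutases, catalases and ascorbate peroxidases, FSD1, the iron superoxide dismutase of chloroplasts, was downregulated, with 5417 and 4124 in hda19 and 16108 and 14575 in the wild type (-1.70 ± 0.34). This call was lost without wild-type library 1 (-1.62), wild-type library 2 (-1.77) or hda19 library 2 (-1.50) although the libraries did not overlap. CAT3, a catalase, was higher by adjusted P value alone, with 50103 and 56642 in hda19 and 25598 and 30302 in the wild type (0.94 ± 0.16, limma-trend adjusted P = 0.028), and CAT2 had a log2FC of -0.64 ± 0.20 that did not pass.

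**Figure D3:**
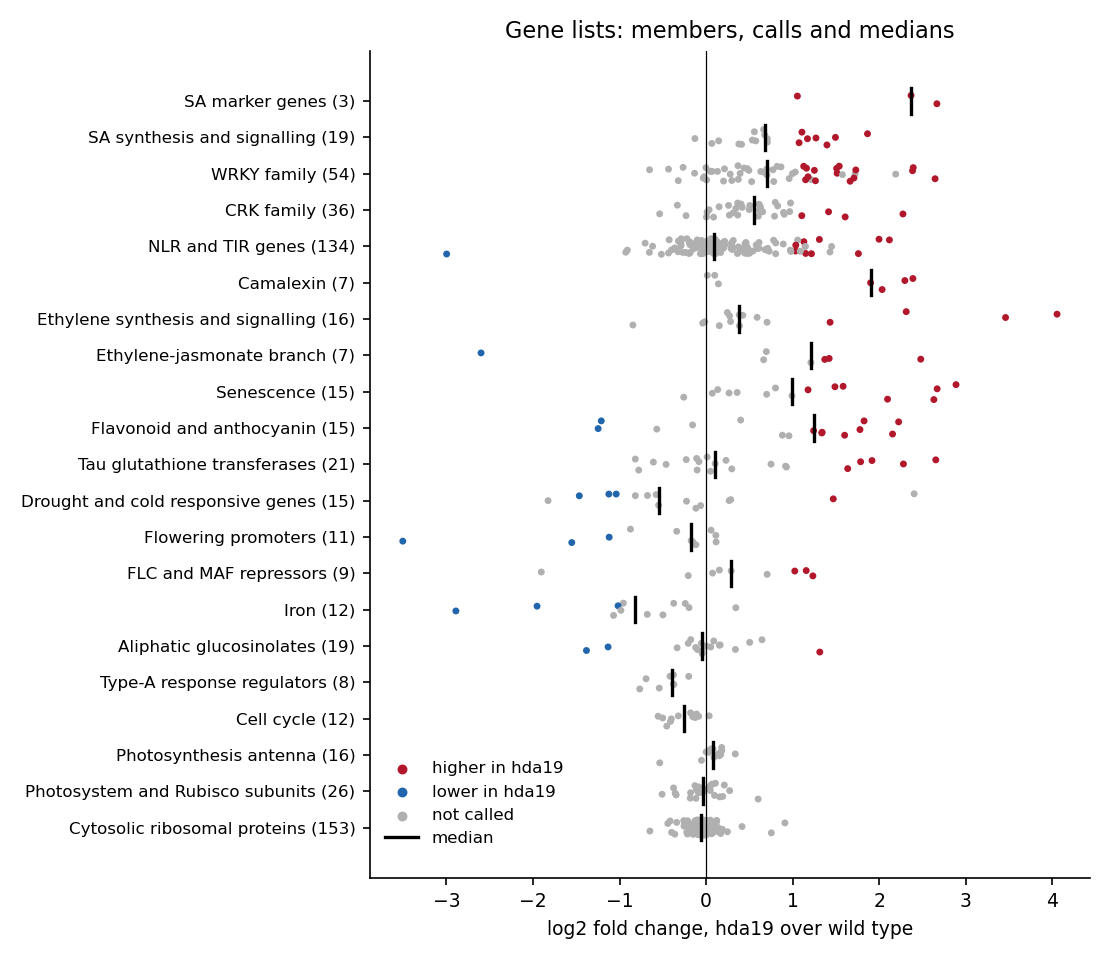
Log2 fold change of hda19 over wild type for each member of 21 gene lists, with the number of members in brackets and the median as a black line. Red points are upregulated, blue points downregulated and grey points not called, and the medians run from -0.82 in the iron list to 2.37 in the SA marker list.

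Genes of the anthocyanin branch of flavonoid synthesis were upregulated, and 2 genes of the flavonol branch were downregulated. Both branches draw on the same early enzymes, then DFR and LDOX lead to the red anthocyanins and FLS1 to the colourless flavonols. Of 15 measured genes 8 were upregulated (53.3%, against 4.74% of all genes) and 2 were downregulated (13.3%, against 1.81%). The other 2 of the 17 listed genes were not used, and 1 of these, an early enzyme, is listed at 0 in every library. DFR had 2960 and 2352 in hda19 and 511 and 687 in the wild type (2.15 ± 0.18, limma-trend adjusted P = 0.00383), and LDOX had 2600 and 2048 in hda19 and 597 and 759 in the wild type (1.78 ± 0.17). TT19, a glutathione transferase needed to bring anthocyanins into the vacuole, had 1087 and 841 in hda19 and 241 and 300 in the wild type (1.82 ± 0.20). UF3GT, which adds a sugar, had 511 and 462 in hda19 and 138 and 185 in the wild type (1.60 ± 0.20), and F3'H, which adds a hydroxyl group, had 632 and 524 in hda19 and 242 and 244 in the wild type (1.24 ± 0.17). The activators PAP1 (257 and 192 in hda19, 108 and 70.8 in the wild type, 1.34 ± 0.29) and TT8 (77.2 and 110 in hda19, 34.2 and 37.4 in the wild type, 1.34 ± 0.35) were also upregulated. Whether they act on the genes above in hda19 was not tested.

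On the flavonol side, FLS1, the flavonol synthase, had 2293 and 1427 in hda19 and 4382 and 4216 in the wild type (-1.25 ± 0.22), a call lost without hda19 library 2 (-0.91). MYB111, an activator of flavonol genes, had 137 and 134 in hda19 and 297 and 335 in the wild type (-1.21 ± 0.22). MYB11, a relative of MYB111, was the exception, with 9.29 and 16.2 in hda19 and 3.02 and 1.02 in the wild type (2.22 ± 0.59). The entry enzyme CHS had 23767 and 17935 in hda19 and 31595 and 29766 in the wild type, a log2FC of -0.57 ± 0.17 that did not pass, and CHI overlapped between genotypes (-0.16 ± 0.19).

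Single genes of ABA signalling were upregulated, and a few cold- and drought-responsive genes were downregulated. ABA binds PYR/PYL receptors, which then block clade A phosphatases and free SnRK2 kinases. PYL5 had 884 and 938 in hda19 and 228 and 359 in the wild type (1.67 ± 0.21, limma-trend adjusted P = 0.012). PYL4 was higher by adjusted P value alone, with 4889 and 5295 in hda19 and 2659 and 3450 in the wild type (0.75 ± 0.14, limma-trend adjusted P = 0.0412). Of the 10 measured receptors 4 had an unadjusted P value under 0.05 with a positive log2FC, including PYL6 (0.86 ± 0.30) and PYR1 (0.37 ± 0.13), which passed neither rule. PYL10, with 2 and 0 reads in hda19 and 10 and 10 in the wild type, was 10.6-fold lower (95% counting interval 2.57 to 93.3), a call lost without either wild-type library or hda19 library 2. HAI1, a phosphatase that opposes ABA signalling, had 227 and 229 in hda19 and 57.3 and 62.7 in the wild type (1.91 ± 0.28), and it was the only one of 7 phosphatases past the limits. SNRK2.7 had 107 and 140 in hda19 and 39.2 and 23.3 in the wild type (1.98 ± 0.35), whereas SNRK2.6, the kinase that closes stomata, had a log2FC of 0.27 ± 0.15. SNRK2.9 had 3 and 22 reads in hda19 and 0 in both wild-type libraries, at least 7.88-fold higher when 3 reads over the wild type are taken as the floor, and it was lost without either wild-type library or hda19 library 2.

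ABA synthesis itself was little different. ABA1, zeaxanthin epoxidase, had 27960 and 28465 in hda19 and 32482 and 30200 in the wild type (-0.15 ± 0.13), and NCED3, the rate-limiting enzyme under drought, had 40.2 and 84.1 in hda19 and 106 and 109 in the wild type (-0.87 ± 0.38), which did not pass. NCED5, of the same enzyme family, was upregulated at low counts (42.1 and 32.8 in hda19, 20.1 and 15.2 in the wild type, 1.05 ± 0.41) and was lost without wild-type library 2 (0.85) or hda19 library 1 (0.87). Limma-voom called 0 of the 10 genes of ABA synthesis and breakdown.

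Of 15 drought- and cold-responsive genes 1 was upregulated (6.67%, near the 4.74% of all genes) and 3 were downregulated (20%, against 1.81%). By limma-voom on recovered reads 2 were called higher and 4 lower. Their median log2FC was -0.55. RD26, a NAC factor induced by ABA, had 533 and 408 in hda19 and 136 and 207 in the wild type (1.47 ± 0.25). COR15A, which protects chloroplast membranes in the cold, had 586 and 519 in hda19 and 872 and 1477 in the wild type (-1.04 ± 0.24), its neighbour COR15B had 35 and 57.2 in hda19 and 129 and 122 in the wild type (-1.47 ± 0.39), and RD29A had 494 and 357 in hda19 and 1020 and 823 in the wild type (-1.12 ± 0.38). None of these downregulated genes passed in all fits with 1 library left out. COR15A was lost without wild-type library 2 (-0.66) or hda19 library 2 (-0.95), COR15B without either wild-type library (-1.43 and -1.50) or hda19 library 1 (-1.12), and RD29A without each of the 4 libraries (-0.89 to -1.36). RD29B had 38.2 and 97.6 in hda19 and 16.1 and 7.10 in the wild type and did not pass (2.4 ± 1.04).

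**Figure D4:**
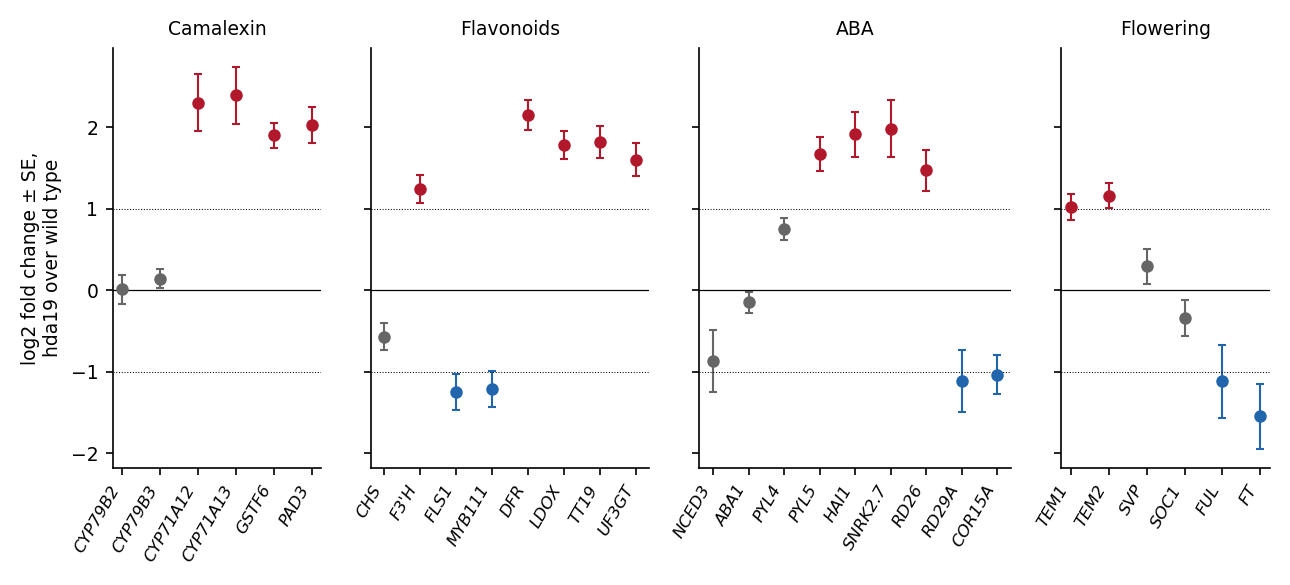
Log2 fold change of hda19 over wild type with its standard error (bars) for genes of 4 pathways, ordered along each pathway or by role, with dotted lines at 1 and -1. Upregulated genes are red, downregulated genes blue and genes that were not called grey. In camalexin synthesis the aldoxime-forming CYP79B2 and CYP79B3 sit near 0, and the later genes lie at 1.90 to 2.39.

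Of 11 flowering promoters 3 were downregulated (27.3%, against 1.81% of all genes), and of 9 repressors 3 were upregulated (33.3%, against 4.74%). Most of them were called in only some of the fits with 1 library left out. FT, the mobile flowering signal made in leaves, had 36.0 and 35.6 in hda19 and 79.5 and 144 in the wild type (-1.55 ± 0.40), a call lost without hda19 library 2 (-1.54). Its close relative TSF had 0 and 1 reads in hda19 and 10 and 21 in the wild type, 32.8-fold lower with a 95% counting interval that starts at 5.46. FUL, a MADS-box gene downstream of FT, had 102 and 43.9 in hda19 and 154 and 140 in the wild type (-1.12 ± 0.45), lost without wild-type library 1 (-1.05), wild-type library 2 (-1.19) or hda19 library 2 (-0.52). No promoter was upregulated, and of the 3 calls only that of TSF remained without any 1 library. TEM1 and TEM2, repressors of FT, had log2FC values of 1.02 ± 0.16 and 1.16 ± 0.15. TEM1 had 1717 and 1600 in hda19 and 717 and 925 in the wild type, and TEM2 had 3360 and 3280 in hda19 and 1278 and 1737 in the wild type. Both were lost without wild-type library 1 (0.84 for TEM1, 0.93 for TEM2), and TEM1 also without hda19 library 1 (0.97). MAF4, a relative of FLC, was upregulated as well (44.2 and 34.5 in hda19, 10.1 and 25.3 in the wild type, 1.23 ± 0.48) and was lost without wild-type library 1 (0.61), hda19 library 1 (1.06) or hda19 library 2 (1.41), so that the calls among repressors were 0 without wild-type library 1. FLC, the central repressor, had 0.03 and 9.13 in hda19 and 11.1 and 11.1 in the wild type (-1.90 ± 1.11), below the wild type in both libraries but not called. The other main repressors and integrators SVP (0.29 ± 0.21), SOC1 (-0.34 ± 0.22) and CO (0.11 ± 0.55) overlapped between genotypes.

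The largest increases were found in genes of varied function. AT1G67105, a noncoding RNA (chromosome 1, 25057479 to 25058264, plus strand), had 4093 and 1509 in hda19 and 54.3 and 31.4 in the wild type, a log2FC of 5.88 ± 0.44 (limma-trend adjusted P = 0.00275). Its measured neighbours LBD40 (1.07) and CYP735A2 (0.04) were not called. NIT2, a nitrilase, had 3070 and 3723 in hda19 and 112 and 140 in the wild type, a log2FC of 4.75 ± 0.22 and the lowest adjusted P value among upregulated genes (limma-trend, 0.000447). NIT1 lies directly next to NIT2 and is closely related to it, but it had 74072 and 64482 in hda19 and 62116 and 75771 in the wild type (0.01 ± 0.23), and NIT3 on its other side had 0.53 ± 0.20. Reads common to these copies were not counted, so the division between them is uncertain. AT2G32550, related to Rcd1 differentiation proteins, had 619 and 802 in hda19 and 18.1 and 47.5 in the wild type (4.53 ± 0.41).

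DOX1, an alpha-dioxygenase that oxidises fatty acids during defence, had 185 and 712 in hda19 and 18.1 and 17.2 in the wild type (4.29 ± 0.75), so its hda19 libraries differed widely. Among upregulated genes with a wild-type mean of at least 500, AT2G34655, an uncharacterized protein, had 4528 and 4808 in hda19 and 413 and 627 in the wild type (3.19 ± 0.20, limma-trend adjusted P = 0.00211), and AT4G36850, a membrane protein of the PQ-loop type, had 3314 and 2637 in hda19 and 428 and 615 in the wild type (2.53 ± 0.19). PR2, SAG13 and PR1, given above, were the others of the 5 largest increases at this level.

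For 10 upregulated genes no wild-type read was counted, and for 9 downregulated genes no hda19 read. AT3G17520, a late embryogenesis abundant (LEA) protein, had 38 and 74 reads in hda19 and 0 in both wild-type libraries, at least 35.3-fold higher. AT4G05540, a nucleoside triphosphate hydrolase, had 28 and 64 reads in hda19 and 0 in both wild-type libraries, at least 29-fold higher. A noncoding RNA, AT2G01422, had 48 and 177 reads in hda19 and 0 and 2 in the wild type, 106-fold higher with a 95% counting interval of 29.1 to 884, and LTP4, a lipid transfer protein, had 77 and 38 reads in hda19 and 0 and 2 in the wild type, 54.4-fold higher (14.7 to 454). These bounds and intervals cover counting error only.

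The largest decrease was at AT3G01345, an uncharacterized protein gene on chromosome 3 (129138 to 130749, plus strand). It had 6.18 and 7.13 in hda19 and 6395 and 10162 in the wild type, a log2FC of -10.04 ± 0.36 and the lowest adjusted P value of all genes (limma-trend, 0.000128). The adjacent genes AT3G01340 (0.10) and AT3G01350 (-0.53) were not called. EXLB1, an expansin-like protein of the cell wall, had 6.21 and 12.6 in hda19 and 909 and 1070 in the wild type (-6.64 ± 0.38, limma-trend adjusted P = 0.00141). Of 18 expansins EXLB1 was downregulated and EXLA1 was upregulated (821 and 592 in hda19, 208 and 180 in the wild type, 1.84 ± 0.33). AT1G31690, a copper amine oxidase, had 89.6 and 176 in hda19 and 1891 and 1805 in the wild type (-3.87 ± 0.33).

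Further large decreases concerned a phloem protein, a wall protein and a transporter. PP2-A6, a phloem lectin, had 9.23 and 5.24 in hda19 and 108 and 137 in the wild type (-3.94 ± 0.48), and GRP9, a glycine-rich protein, had 5.21 and 19.0 in hda19 and 237 and 113 in the wild type (-3.89 ± 0.63). UMAMIT17, of the family of amino acid exporters, had 462 and 384 in hda19 and 1750 and 2181 in the wild type (-2.21 ± 0.16). The long noncoding RNA AT3G06955 had 6.19 and 9.86 in hda19 and 147 and 265 in the wild type (-4.49 ± 0.82). AT4G00872, an invertase or pectin methylesterase inhibitor, had 0 reads in both hda19 libraries and 19 and 18 in the wild type, at least 13-fold lower, and AT2G21990 had 0 in both hda19 libraries and 14 and 14 in the wild type, at least 9.87-fold lower.

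**Figure D5:**
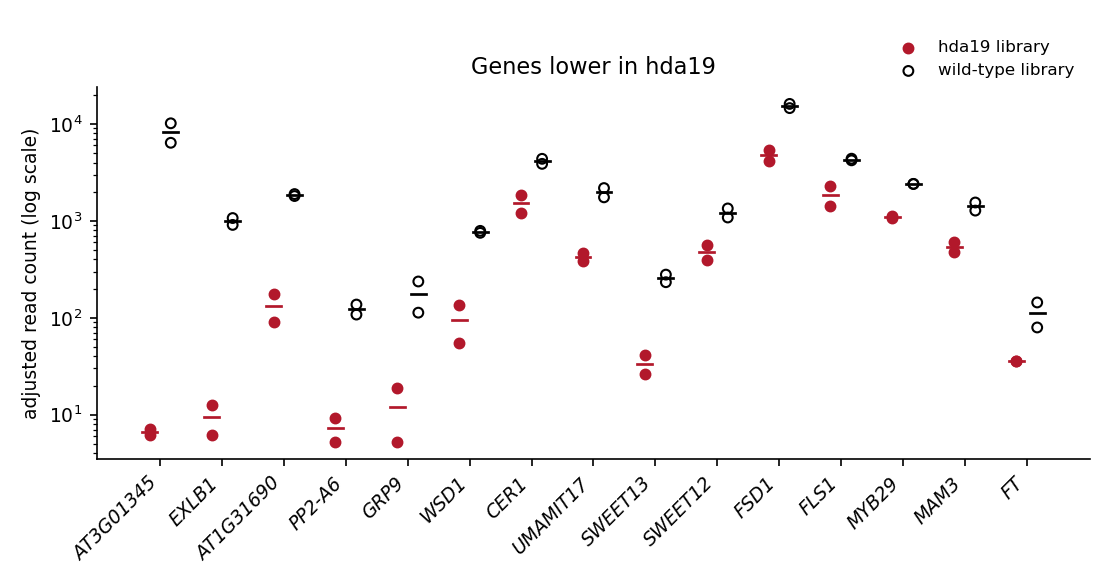
Adjusted read counts (log axis) of 15 downregulated genes in each library, with hda19 as filled points on the left and the wild type as open points on the right of each pair, and lines at the means of 2 libraries. In every gene shown the hda19 points lie below the wild-type points, by the widest margin in AT3G01345.

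Single genes of surface wax and of sugar export were among those lowered, in 2 families examined after their values had been seen. WSD1, a wax ester synthase, had 136 and 54.5 in hda19 and 753 and 789 in the wild type (-3.15 ± 0.39), and CER1, which makes wax alkanes, had 1857 and 1220 in hda19 and 3877 and 4370 in the wild type (-1.45 ± 0.19). They were the only downregulated genes of 15 in the wax list (13.3%, against 1.81% of all genes), none was upregulated, and the list median was -0.06. SWEET proteins let sugars leave cells. Of 12 members 4 were downregulated (33.3%, against 1.81% of all genes) and 2 were upregulated (16.7%, against 4.74%). SWEET13 had 41.1 and 26.4 in hda19 and 233 and 279 in the wild type (-2.91 ± 0.36), SWEET12, which loads sucrose towards the phloem, had 567 and 395 in hda19 and 1344 and 1084 in the wild type (-1.35 ± 0.22), and SWEET10 had 12.3 and 6.99 in hda19 and 42.2 and 37.4 in the wild type (-1.98 ± 0.50). SWEET14 had 0 reads in both hda19 libraries and 6 and 15 in the wild type, at least 7.4-fold lower. These 4 calls remained without any 1 library. The family moved in both directions, since SAG29, the senescence gene given above that is also known as SWEET15, was upregulated in all of these fits (1.58 ± 0.27), whereas the call of SWEET16 (1.19 ± 0.41) was lost without wild-type library 1 (0.75) or hda19 library 1 (0.70). SWEET11, the partner of SWEET12, had 8017 and 7673 in hda19 and 10005 and 11716 in the wild type and did not pass (-0.47 ± 0.12).

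Iron genes varied widely between libraries. Of 12 genes 3 were downregulated (25%, against 1.81% of all genes) and none was upregulated. The median of -0.82 was the lowest in the plot of gene lists. BHLH38, a regulator of iron uptake, had 19.8 and 135 in hda19 and 644 and 240 in the wild type (-2.89 ± 0.81), and its near-identical neighbour BHLH39 had 50.6 and 149 in hda19 and 684 and 168 in the wild type (-1.95 ± 0.69). FER1, an iron-storing ferritin, had 4311 and 2489 in hda19 and 4596 and 9572 in the wild type (-1.02 ± 0.35). For BHLH38 and BHLH39 the replicates of both genotypes differed widely, and no call remained in all omissions. BHLH38 was lost without wild-type library 1 (-2.18), wild-type library 2 (-3.60) or hda19 library 1 (-1.54), BHLH39 without wild-type library 1 (-0.94), hda19 library 1 (-1.19) or hda19 library 2 (-2.72), and FER1 without wild-type library 2 (-0.49), hda19 library 1 (-1.41) or hda19 library 2 (-0.62).

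Growth hormones showed few changes. ROT3 (520 and 583 in hda19, 215 and 141 in the wild type, 1.66 ± 0.23) and BR6OX2 (1605 and 1709 in hda19, 864 and 760 in the wild type, 1.03 ± 0.13), enzymes of brassinosteroid synthesis, were upregulated among 10 genes of this hormone (20%, against 4.74% of all genes). BR6OX2 was lost without wild-type library 2 (0.94) or hda19 library 2 (0.99). SAUR36, an auxin-responsive gene tied to leaf senescence, had 172 and 172 in hda19 and 55.3 and 61.7 in the wild type (1.54 ± 0.27). Of 21 Aux/IAA repressors IAA29 and IAA6 were upregulated (9.52%, against 4.74% of all genes) and IAA15 was downregulated (4.76%, against 1.81%). Of 15 auxin response factors none was called (3 and 1 had an unadjusted P value under 0.05 with a positive and a negative log2FC, and limma-voom called 0). IAA29 (1.53 ± 0.40) was lost without wild-type library 1 (0.92) or hda19 library 1 (1.49) or 2 (1.56), IAA6 (1.03) without each of the 4 libraries (0.68 to 1.38), and IAA15 without either wild-type library or hda19 library 2. Type-A response regulators, which answer cytokinin, all had a negative log2FC (8 of 8, between -0.77 and -0.20). No gene of them was called by limma-trend or limma-voom, although 5 had an unadjusted P value under 0.05. TCP4, a factor that ends cell division in leaves, was lower by adjusted P value alone, with 1853 and 1634 in hda19 and 2955 and 3290 in the wild type (-0.84 ± 0.14, limma-trend adjusted P = 0.0241).

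Other listed groups held isolated calls that were lost when a library was omitted. WAK3, a kinase attached to the cell wall, had 466 and 470 in hda19 and 277 and 148 in the wild type (1.21 ± 0.37), and it was lost without wild-type library 2 (0.76) or hda19 library 1 (1.21) or 2 (1.2). The zinc finger genes ZAT12 (200 and 205 in hda19, 49.3 and 91.0 in the wild type, 1.58 ± 0.43) and ZAT7 (443 and 286 in hda19, 142 and 137 in the wild type, 1.35 ± 0.29), which respond to oxidative and other stress, were upregulated. ZAT12 was lost without wild-type library 1 (1.15) or hda19 library 1 (1.60) or 2 (1.56), and ZAT7 without wild-type library 1 (1.38) or 2 (1.32). DOG1, a regulator of seed dormancy, was the only called gene of the 5 measured seed maturation genes (3.11 and 6.30 in hda19, 13.1 and 16.2 in the wild type, -1.51 ± 0.55), and it was lost without wild-type library 1 (-1.65) or 2 (-1.36) or hda19 library 1 (-1.09). MGD3, a galactolipid synthase of phosphate starvation, had 20.5 and 8.66 in hda19 and 78.4 and 33.4 in the wild type (-1.86 ± 0.58), lost without wild-type library 1 (-1.26) or hda19 library 2 (-1.28). GA2OX1, which inactivates gibberellin, had 12.4 and 22.4 in hda19 and 58.3 and 48.6 in the wild type (-1.61 ± 0.48), lost without wild-type library 1 (-1.48) or 2 (-1.74) or hda19 library 1 (-1.21).

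Genes of photosynthesis, protein synthesis and cell division held no call by fold and P value with limma-trend. Among 153 cytosolic ribosomal protein genes the count was 0 in both directions, 2 had an unadjusted P value under 0.05 with a positive log2FC and 1 passed by adjusted P value, and limma-voom called 0. The log2FC was positive in 44 of them and negative in 109. In both hda19 libraries 6 lay above and 9 below the wild type. Of 16 light-harvesting proteins 1 had an unadjusted P value under 0.05 with a negative log2FC, and of 26 photosystem and Rubisco subunits 1 was positive and 1 negative at this level, with 0 called by limma-voom in either list. Their medians were -0.06, 0.08 and -0.04. LHCB1.1, a major antenna protein, had 273558 and 212396 in hda19 and 208407 and 300559 in the wild type. The replicates of each genotype here differed more than the genotypes. For 12 cell cycle genes the median was -0.25, none had an unadjusted P value under 0.05 and limma-voom called 0. However, 9 of these 12 lay below the wild type in both hda19 libraries, against 23.9% of all genes. For 9 cellulose synthases the median was -0.27, and 8 lay below the wild type in both hda19 libraries. Of these 9 genes, 3 had an unadjusted P value under 0.05 with a negative log2FC but 0 were called by either tool. Of 12 clock genes limma-trend called 0, with 2 positive and 1 negative at an unadjusted P value under 0.05, and limma-voom called 1 as lower.

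The annotated biological processes were counted in the same way. Of the 8816 genes with a process term, 59 belonged to the defence response to fungus, of which 15 were upregulated (25.4%, against 4.68% of the genes with a term) and 3 were downregulated (5.08%, against 1.7%). The response to chitin had 9 of 52 upregulated (17.3%), the response to ABA 11 of 68 (16.2%) and the response to bacterium 5 of 31 (16.1%), with none downregulated in these 3. Related larger terms lay closer to the 4.68%. The general defence response had 24 of 251 upregulated (9.56%) and 8 downregulated (3.19%). The defence response to bacterium had 7 of 93 upregulated (7.53%) and 1 downregulated (1.08%), and the innate immune response had 5 of 83 upregulated (6.02%) and 2 downregulated (2.41%). In contrast, translation with 361 genes, ribosome biogenesis with 99 and photosynthesis with 65 had no gene called by limma-trend in either direction.

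No gene differed between hda19 and hdip1/2/3 by adjusted P value. In the same limma-trend fit 4945 of 19907 genes had an unadjusted P value under 0.05, the smallest Benjamini-Hochberg adjusted P value was 0.188, and limma-voom also gave 0 genes. Whether any gene named here differs between the mutants was therefore not resolved with 2 libraries each.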

How the data were processed

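The authors trimmed the reads, aligned them to TAIR10 with HISAT2 2.2.0, counted uniquely mapped reads per gene with featureCounts 2.0.2 and adjusted the counts to a common library size. The study's methods name cuffdiff together with edgeR. The deposited values are this adjusted read signal, 1 column per library for 3 genotypes with 2 libraries each, and 0 columns were left without a sample. They are not whole numbers, so they were treated as a normalized signal, and whole reads were recovered from all 195288 values of 195288 (100%, within 0.01) for a test by limma-voom. The labels describe single-end reads of 50 nt on a DNBSEQ instrument and the methods paired reads of 150 nt on a NovaSeq instrument. Strand use in counting is not given in the sources used here, so overlapping genes on opposite strands cannot be told apart.

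The 23685 genes that averaged 1 or more in any genotype were tested with limma-trend (limma 3.58.1, R 4.3.3) on log2(value + 1), with 6 libraries in 1 fit, the contrast hda19 minus wild type and Benjamini-Hochberg adjustment over all genes tested. A fold change on this scale understates the change of low genes. Of all genes tested, 1101 were higher (4.65%) and 495 lower (2.09%) by fold and P value, and 510 (2.15%) and 163 (0.688%) by adjusted P value. An exact permutation test of 2 against 2 libraries cannot give a P value below 0.333. The 32548 identifiers were all found in RefSeq (TAIR10.1), which gave symbols, positions, products and the upstream windows. Floors of 3 reads and 95% intervals cover counting error only. The depth per library was 43906641 to 48407739 reads.

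The genes and lists were chosen with earlier results of these data known. Named were the complex subunits, the 8 largest rises and falls that passed both rules without overlap of the libraries, the 5 largest of each with a wild-type mean of at least 500, up to 3 called members of each list (otherwise up to 2 of the highest mean) and members with a defining role. Wax, SWEET, chitinase, NAC, LEA and lipid transfer families and the genes in the closing section were added after their values were seen. Alternatives were the scaling, filter, pseudocount, libraries, replicate number, test and transcript length, of which limma-voom with 4 libraries was chosen after seeing the data. A called gene of the ethylene list is not reported here. The scripts were tested on simulated data, and figures were drawn with matplotlib 3.10.9.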

Additional observations from a re-analysis of the deposited data

How the results depend on the processing

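The counts by fold and P value kept within 1.5 times of their values under every alternative. With both libraries of hda19 and the wild type in the fit, they were 746 to 958 upregulated and 251 to 380 downregulated genes. Of the 943 and 361 genes, 743 to 932 and 247 to 360 passed again in these fits. Without 1 of these libraries the genes called were only partly the same. All 943 and 361 genes kept their sign, but no omission of a library could reverse it, because their libraries did not overlap. The counts by adjusted P value did not keep within 1.5 times. The 508 higher genes became 15 with no filter, 0 with hda19 and wild type alone, 298 with limma-voom on these 4 libraries (chosen after seeing the data), 1166 with the trend on transcript length removed and 0 to 0 with any 1 of the 6 libraries left out. The 163 lower genes became 278 with a filter at a mean of 10, 16 with no filter, 0 with hda19 and wild type alone, 88 with limma-voom on these 4 libraries, 776 with the length trend removed and 0 to 0 with 1 library left out. With 4 libraries fewer degrees of freedom remain (prior 1.42 against 4.65 in the full fit). At least 20% of members were upregulated in 14 of 50 lists with 4 or more members, and in 8 to 14 lists when 1 library was left out, with 8 without wild-type library 2 and 8 without hda19 library 2. The comparison of hda19 with hdip1/2/3 gave 1 gene with no filter and 0 in the full fit.

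Of 149 genes named by rule, none that passed the limits in the full fit or the alternative reversed its sign. For genes called in the full fit, no omission of a library could reverse it, because their libraries did not overlap. The number no longer past the limits was 26 to 31 without a library of hda19 or the wild type, 21 with no filter and 13 with 4 libraries. The replicate numbers did not pair the samples, as deviations of same-numbered libraries correlated at -0.0781 between hda19 and wild type, 0.128 for the wild type with hdip1/2/3 and -0.0749 for hda19 with hdip1/2/3. With the replicate number as a block, 957 genes were upregulated and 359 downregulated (932 and 344 of them shared with the counts above), 511 and 150 passed by adjusted P value, and no named gene changed its call. Median-of-ratios scaling moved the median log2FC by -0.00934. The cause of these dependencies was not tested. With 2 libraries per genotype, changes below the fold limit and genes of low count are the least certain.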

Other observations

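Several families outside the listed pathways were examined after their values had been seen. Of 64 NAC transcription factors 14 were upregulated (21.9%, against 4.74% of all genes) and 1 was downregulated (1.56%, near the 1.81% of all genes), and 12 of the 14 passed without any 1 library. NAC004 had 107 and 174 in hda19 and 18.1 and 17.2 in the wild type (log2FC 2.88 ± 0.44). Of 45 LEA proteins, which protect cells against drying, 10 were upregulated (22.2%, against 4.74% of all genes) and 1 was downregulated (2.22%, against 1.81%). The number upregulated was 6 without wild-type library 2, and LEA7, with 20 and 134 reads in hda19 and 0 and 2 in the wild type (72.8-fold higher, 95% counting interval 19.8 to 607), differed most between the hda19 libraries and was lost without either wild-type library or hda19 library 2. Among 49 lipid transfer proteins 7 were upregulated (14.3%, against 4.74% of all genes) and 3 downregulated (6.12%, against 1.81%). EARLI1, a secreted protein of this family linked to defence priming, had 1032 and 1703 in hda19 and 151 and 234 in the wild type (2.81 ± 0.30), and its relative AT4G12490 had 380.0 and 938 in hda19 and 53.3 and 86.9 in the wild type (3.11 ± 0.45). None of the downregulated lipid transfer genes remained without wild-type library 2.

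Further genes with large increases belong to no listed group. CIPK16, a kinase that acts with calcium sensors, had 166 and 199 in hda19 and 18.1 and 12.2 in the wild type (3.53 ± 0.32). LAS1, lanosterol synthase, had 199 and 251 in hda19 and 18.1 and 20.2 in the wild type (3.48 ± 0.31), and YSL7, a transporter of the yellow stripe family, had 132 and 165 in hda19 and 14.1 and 18.2 in the wild type (3.12 ± 0.32). These 3 genes were called in all fits with 1 library left out. IPT7, a cytokinin-forming enzyme, had 34 and 44 reads in hda19 and 2 and 1 in the wild type, 24.6-fold higher (95% counting interval 8.11 to 122). The polygalacturonases ADPG1 and PGAZAT (ADPG2), which loosen cell walls where organs detach, had 7 and 25 reads and 19 and 9 reads in hda19 and 0 in both wild-type libraries, at least 10.1-fold and 8.83-fold higher.

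Among genes that do not code for protein, 8 of 31 microRNA loci were upregulated and 1, MIR160c, was downregulated. The upregulated share was 25.8%, against 4.74% of all genes and 12.8% of genes with a mean of both genotypes under 100. Of 205 long noncoding RNAs 13 were upregulated (6.34%, near the share of all genes) and 7 downregulated (3.41%, against 1.81% of all genes and 6.11% of genes with a mean of both genotypes under 100). The libraries were made from total RNA and counted per gene, so a microRNA locus shows its longer transcripts. MIR841b had 46.4 and 80.4 in hda19 and 10 and 2.04 in the wild type (3.42 ± 0.69), and MIR167a had 20.5 and 15.9 in hda19 and 6.04 and 6.07 in the wild type (1.44 ± 0.44). The noncoding RNA AT3G15536 had 594 and 431 in hda19 and 133 and 128 in the wild type (1.95 ± 0.25). MIR850 and MIR863, 2 of the 8 microRNA loci, lie within the noncoding RNA AT4G13495, which had 10277 and 11286 in hda19 and 6809 and 4223 in the wild type (1.01 ± 0.25). Their reads cannot be told apart without strand, and the call of AT4G13495 was lost without wild-type library 2 (0.66) or hda19 library 1 (1.07) or 2 (0.94), with those of MIR850 (0.73 and 0.81) and MIR863 (0.60 and 0.85) also lost without wild-type library 2 and hda19 library 2.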
